A study of Mus musculus with 8 samples.

Results

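In all, 9 genes of the transforming growth factor beta (TGF-beta) system were followed in mouse astrocytes: the 3 ligand genes Tgfb1, Tgfb2 and Tgfb3, the latent binding proteins Ltbp1 and Ltbp2, the receptor gene Tgfbr2, the inhibitor Smad7, the induced matrix gene Tgfbi, and Inhba, which encodes the beta A subunit of activin. They were chosen by symbol from a list of 9 names, and all 9 were found among the 23401 gene IDs of the deposited table. The study compared astrocytes in a culture named MGS, called soft in the sample descriptions, with astrocytes in conventional culture (CV), called hard. RNA was taken on day 5 and on day 32. Each of the 4 groups has 2 libraries, 8 in all. All groups are labelled mouse astrocyte. No genotype, strain, age, sex or added agent is given in the sources used here, nor what the letters MGS stand for. The labels do not say that the 2 libraries of a group came from separate cultures, so the p-values reflect no more than the spread of these libraries, and that spread may be technical.

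TGF-beta ligands are secreted in a latent form, held by their own propeptide and often tethered to the matrix by latent TGF-beta binding proteins. Once released, for example by integrins or thrombospondin, they bind the type II receptor encoded by Tgfbr2, which activates the type I receptor and the Smad2 and Smad3 transcription factors. Smad7 is induced by the pathway and blocks it at the receptor. In the brain, TGF-beta is made by astrocytes, microglia and cells of the meninges and vessels, and it acts on astrocyte reactivity, on microglial identity and on matrix deposition.

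The 9 genes did not move as one block, and for most of them the difference between the cultures changed size or direction between the days. At day 5 Tgfb1, Tgfbi and Tgfbr2 were higher in MGS, while Tgfb3, Ltbp1, Ltbp2, Smad7 and Inhba were higher in CV. At day 32 Tgfb1 and Tgfbi were higher in CV instead, and Tgfb2 was higher in MGS. Tgfb3 and Smad7 were also called higher in MGS at day 32, but not after libraries were rescaled to the typical gene. Ltbp2 was higher in CV at both days. Values are in TPM, a transcript level scaled for transcript length and for the total of the library, so levels may be set beside each other between genes. Tests are from limma on log2(TPM + 1) over all 14904 genes that reached 1 TPM in at least 2 libraries, and a gene is called at a Benjamini-Hochberg adjusted p under 0.05. A log2 fold change on this scale understates the change of low genes.

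**Figure D1:**
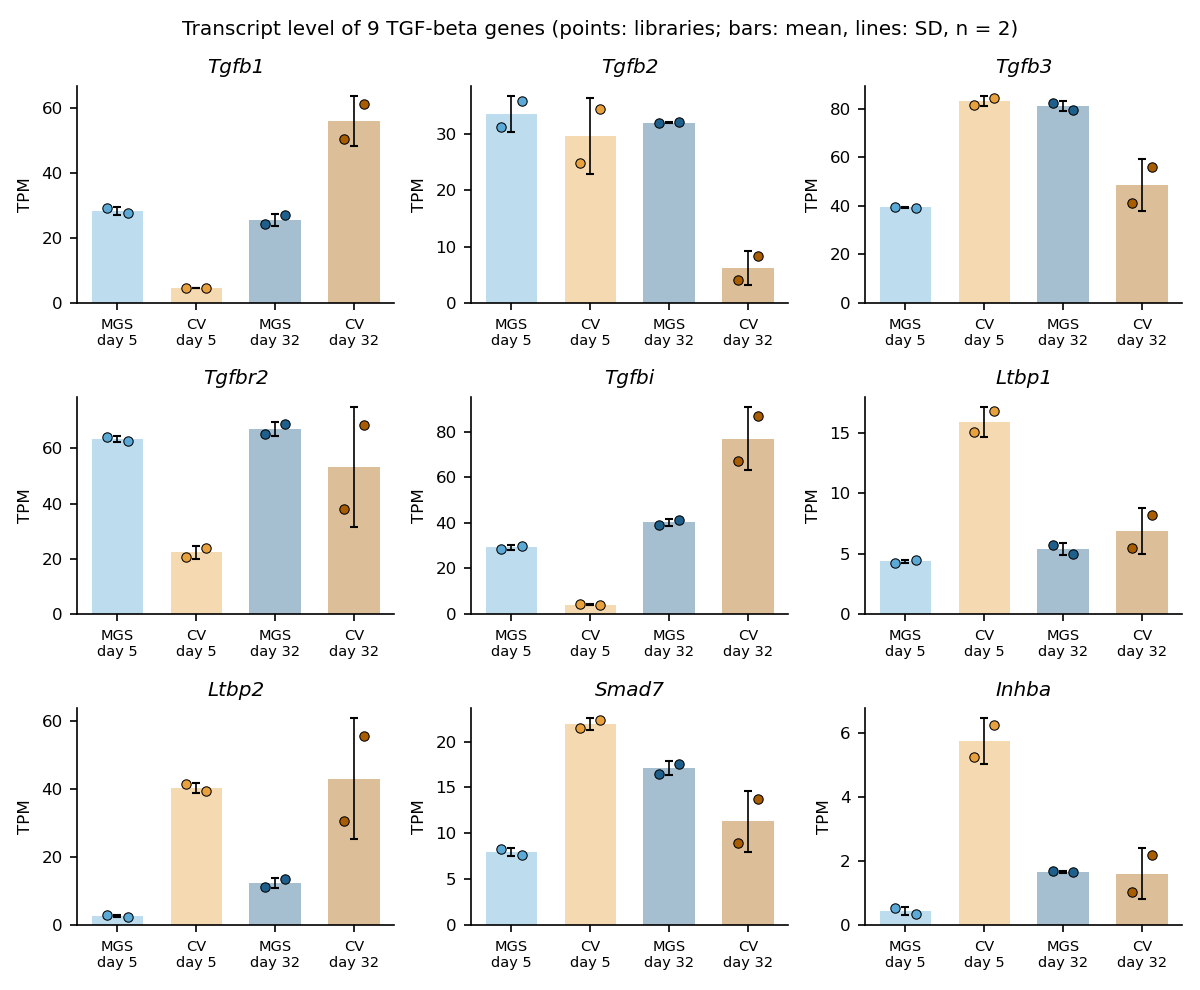
TPM (vertical axis, from 0, with a scale of its own in each panel) of the 9 genes in the 4 groups. Points are the 2 libraries, bars the mean and lines the SD (n = 2). Tgfb1 and Tgfbi are low in CV at day 5 and highest in CV at day 32, whereas Ltbp2 is high in CV at both days.

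Library depth was 2.15 to 4.69 gigabases aligned, with 12912 to 14441 genes at 1 TPM or more. The CV libraries of day 32 differed most from each other (SD of the log2 difference between replicates 0.47, against 0.19 to 0.32 in the other groups). All 9 genes had a higher TPM in replicate 2 of this group than in replicate 1, and so had the typical gene. The factors that bring the typical gene to a common level were 0.7025 in replicate 1 and 0.9283 in replicate 2. After that scaling Tgfb1 (71.9 and 66.2) and Tgfbi (95.8 and 93.4) were lower in replicate 2. At day 32 the median log2 difference of all genes, MGS minus CV, was 0.56 on the TPM scale and -0.002 after median-of-ratios scaling, which sets the typical gene to no change. It also depended on transcript length. The median was 1.37 in the longest 1 of 8 length classes, which holds Tgfbr2, Ltbp1, Ltbp2 and Inhba, and 0.27 in the class of Tgfb1. Rescaled values are given beside results whose calls they change, though not for every rescaling.

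Of the ligands, Tgfb1 (chromosome 7, 25687002 to 25704996, plus strand, mm10) encodes the isoform best known from immune cells and injury. Its level was 29.3 and 27.6 TPM in MGS at day 5, 4.72 and 4.53 in CV at day 5, 24.5 and 27.0 in MGS at day 32, and 50.5 and 61.4 in CV at day 32. The cultures did not overlap at either day, and CV went from the lowest to the highest group. At day 5 the mean was 6.15-fold higher in MGS (28.4 ± 1.24 against 4.62 ± 0.132 TPM, SD, n = 2, log2 fold change 2.39, SE 0.15, limma adjusted p = 1.51e-05). At day 32 it was 2.17-fold higher in CV (MGS 25.7 ± 1.81 TPM and CV 56.0 ± 7.72 TPM, log2 fold change -1.09, SE 0.15, adjusted p = 0.000526). The day 32 value lay between -1.70 and -0.95 under all 18 alternatives, and the call held in each. Here and for the other genes, some of the 18 cannot move a fold change and bear on the call only. Within CV, Tgfb1 was 12.1-fold higher at day 32 than at day 5 (log2 fold change 3.33, SE 0.15, adjusted p = 3.78e-06), whereas within MGS the log2 difference of the days was -0.14 (adjusted p = 0.457). That MGS difference was called lower at day 32 under every rescaling: median-of-ratios scaling (-0.55, adjusted p = 0.00777), quantile normalization (-0.63, adjusted p = 0.00292), FPKM values (-0.37, adjusted p = 0.0261) and length and GC correction (-0.36, adjusted p = 0.0082).

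Tgfb2 (chromosome 1, 186623186 to 186705992, minus strand) encodes an isoform made by glia and needed in development. Its level was 31.3 and 35.8 TPM in MGS and 24.9 and 34.4 TPM in CV at day 5, where the groups overlapped. The log2 difference at day 5 was 0.19 (SE 0.29, limma adjusted p = 0.619), and it was called, at 0.44, only where transcript length and GC content were corrected (adjusted p = 0.0151, or 0.00478 with the replicate number as a block). The day 32 libraries held 32.0 and 32.1 TPM in MGS and 4.02 and 8.35 TPM in CV, so both CV libraries lay far below all other libraries. The day 32 mean was 5.18-fold higher in MGS (32.0 ± 0.0993 against 6.19 ± 3.06 TPM, SD, n = 2, log2 fold change 2.27, SE 0.29, adjusted p = 0.000424). That call held under all 18 alternatives, from 1.25 with length and GC correction to 2.72. Within CV it was 4.79-fold lower at day 32 than at day 5 (log2 fold change -2.14, adjusted p = 0.000993). In MGS the log2 difference between the days was -0.06 (adjusted p = 0.877), with overlapping libraries. It was called lower at day 32 after quantile normalization (-0.50, adjusted p = 0.0297) and after length and GC correction (-0.73, adjusted p = 0.00276).

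Tgfb3 (chromosome 12, 86056743 to 86079041, minus strand) was the most abundant of the 3 ligands in every group other than CV at day 32. It measured 39.5 and 39.3 TPM in MGS and 81.7 and 84.5 in CV at day 5, and 82.5 and 79.6 in MGS and 41.0 and 56.1 in CV at day 32. The order of the cultures at day 5 was thus the opposite of that at day 32, with no overlap at either day. At day 5 Tgfb3 was 2.11-fold higher in CV (log2 fold change, MGS minus CV, -1.06, SE 0.15, limma adjusted p = 0.00102). At day 32 it was 1.67-fold higher in MGS on the TPM scale (log2 fold change 0.75, SE 0.15, adjusted p = 0.00374), but the difference was 0.12 after median-of-ratios scaling (adjusted p = 0.246) and 0.17 after length and GC correction (adjusted p = 0.0547). The increase with time in MGS (log2 fold change 1.02, adjusted p = 0.00222) held under all 18 alternatives. The decrease in CV (-0.78, adjusted p = 0.0048) missed the threshold only in the fit of the 2 CV groups alone (adjusted p = 0.055). Gene models Gm48008 and Gm37804 on the opposite strand share 7.60% and 4.82% of its exon bases, and the use of strand in the quantification is not given.

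As shares of the summed TPM of the 3 ligands, which do not depend on a scaling factor per library, Tgfb1 made up 28.1% ± 1.7 in MGS and 4.0% ± 0.4 in CV at day 5 (SD, n = 2). At day 32 its share was 18.5% ± 1.3 in MGS and 50.8% ± 2.9 in CV. Tgfb2 fell from 25.1% ± 3.9 to 5.4% ± 1.7 in CV, and was 33.1% ± 2.5 and 23.1% ± 0.094 in MGS. Tgfb3 was 70.9% ± 3.5 of the sum in CV at day 5 and 43.7% ± 1.2 at day 32, against 38.9% ± 0.82 and 58.4% ± 1.4 in MGS. On the TPM scale the sum itself varied much less, from 101 ± 1.80 TPM in MGS at day 5 to 139 ± 0.135 in MGS at day 32, with 117 ± 8.59 and 111 ± 21.5 in CV. Unlike the shares, the sum depends on how libraries are scaled. After median-of-ratios scaling it was highest in CV at day 32, and the other groups lay close together. So the makeup of the ligand transcripts differed more between the groups than their total did. The shares are given as a description, with no test. They are not corrected for transcript length, on which the differences also depended. By length class, the median day 32 log2 difference of all genes, MGS minus CV, was 0.27 for Tgfb1, 1.01 for Tgfb2 and 0.57 for Tgfb3.

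**Figure D2:**
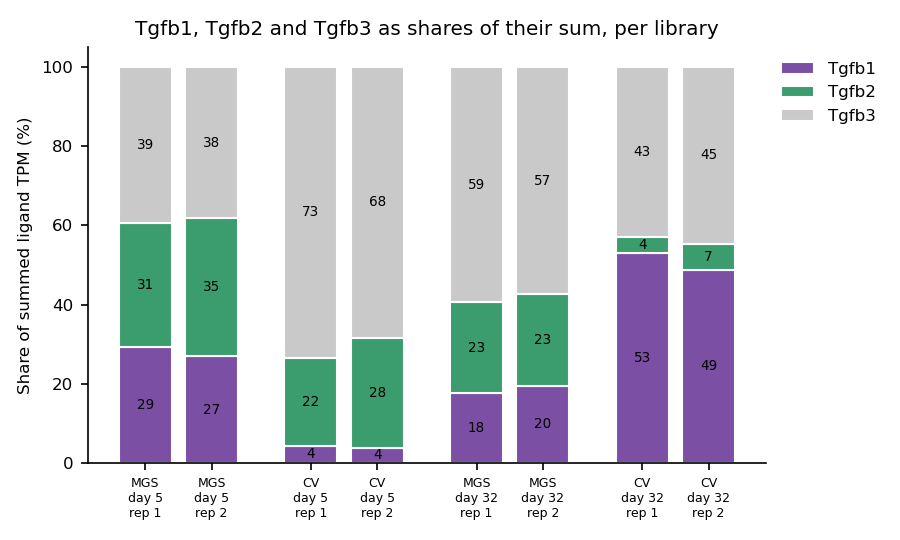
Shares (%) of Tgfb1, Tgfb2 and Tgfb3 in their summed TPM, 1 stacked bar per library. In CV the Tgfb1 share goes from 4.2% and 3.7% at day 5 to 52.9% and 48.8% at day 32, while Tgfb3 holds 73.4% and 68.5% at day 5.

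The genes of the latent binding protein family were both higher in CV at day 5. Ltbp1 (chromosome 17, 75005529 to 75392967, plus strand), whose product tethers the latent ligand to matrix fibrils, was 4.26 and 4.47 TPM in MGS and 15.1 and 16.8 TPM in CV at day 5, a 3.65-fold difference without overlap (log2 fold change, MGS minus CV, -1.66, SE 0.20, limma adjusted p = 0.000429). At day 32 its libraries overlapped, with 5.73 and 5.01 TPM in MGS against CV values of 5.51 and 8.24 (-0.29 on the log2 scale, SE 0.20, adjusted p = 0.235). That difference was called lower in MGS under median-of-ratios scaling (-0.82, adjusted p = 0.00066), quantile normalization (-1.29), FPKM values (-0.53) and length and GC correction (-1.53). It was also called without CV replicate 1 of day 32 (-0.54, adjusted p = 0.0155). Within CV, Ltbp1 was 2.32-fold lower at day 32 than at day 5 (-1.13, adjusted p = 0.00323), although the fit of the 2 CV groups alone gave an adjusted p of 0.0552. Within MGS the log2 difference of the days was 0.25 (adjusted p = 0.339), and it was called lower at day 32 after quantile normalization (-0.36, adjusted p = 0.0243) and after length and GC correction (-0.47, adjusted p = 0.00624).

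Ltbp2 (chromosome 12, 84783212 to 84876495, minus strand), a matrix protein that binds fibrillin and does not hold the latent ligand itself, had the largest culture difference of the 9 genes at day 5. It measured 2.86 and 2.41 TPM in MGS against 41.3 and 39.3 TPM in CV, so the CV mean was 15.3-fold higher (log2 fold change -3.51, SE 0.27, limma adjusted p = 4.32e-05). At day 32 MGS stood at 11.2 and 13.4 TPM and CV at 30.5 and 55.5 TPM, again with no overlap and 3.5-fold higher in CV (-1.67 as log2 fold change, SE 0.27, adjusted p = 0.0012). Both calls held under all 18 alternatives. The day 32 value was -3.02 after length and GC correction. Within MGS it was 4.66-fold higher at day 32 than at day 5 (1.87, adjusted p = 0.00191), and this held under all 18 alternatives too. In CV the days overlapped (log2 difference 0.03, adjusted p = 0.929), with a called increase without CV replicate 1 of day 32 (0.45, adjusted p = 0.0437) and after length and GC correction (0.80, adjusted p = 0.00181). An antisense gene that is itself in the files shares 8.92% of the exon bases of Ltbp2.

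The receptor gene Tgfbr2 (chromosome 9, 116087695 to 116175363, minus strand) was 64.3 and 62.7 TPM in MGS and 20.6 and 23.9 TPM in CV at day 5, with no overlap. The day 5 mean was 2.85-fold higher in MGS (log2 fold change 1.47, SE 0.25, limma adjusted p = 0.00222). By day 32 it was 65.2 and 68.8 TPM in MGS, while the CV libraries lay at 38.0 and 68.5 TPM, the second within the MGS range. The day 32 difference of 0.38 (SE 0.25, adjusted p = 0.2) was not called, it was 0.80 without CV replicate 2 (adjusted p = 0.000566), and it was -1.07 after length and GC correction (adjusted p = 3.15e-05). No direction can therefore be read for Tgfbr2 at day 32. Within MGS the log2 difference between the days was 0.08 on the TPM scale (adjusted p = 0.816), but it was below 0 under each rescaling and called lower at day 32 after length and GC correction (-0.85, adjusted p = 0.000291). In CV it was 2.39-fold higher at day 32 (1.17, adjusted p = 0.00694). Without CV replicate 2 of day 32 that CV difference was 0.75. In the fit of the 2 CV groups alone it was not called (adjusted p = 0.0628).

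Tgfbi (chromosome 13, 56609603 to 56639339, plus strand), whose secreted matrix protein was named for its induction by TGF-beta, had a pattern close to that of Tgfb1. It was 28.4 and 29.9 TPM in MGS and 4.31 and 4.0 TPM in CV at day 5, and 39.0 and 41.4 TPM in MGS and 67.3 and 86.7 TPM in CV at day 32. Neither day had overlapping cultures, and the higher culture was MGS at day 5 and CV at day 32. The day 5 mean was 7.02-fold higher in MGS (log2 fold change 2.55, SE 0.15, limma adjusted p = 1.37e-05), and the day 32 mean 1.92-fold higher in CV (-0.91 on the log2 scale, SE 0.15, adjusted p = 0.00152). The day 32 call held under all 18 alternatives, between -1.53 after median-of-ratios scaling and -0.73. In CV it was 18.5-fold higher at day 32 than at day 5 (3.91, SE 0.15, adjusted p = 2.14e-06), the largest difference between the days among the 9 genes. The MGS increase of 0.45 (adjusted p = 0.0487) was lost under 12 of 18 alternatives and fell to 0.03 after median-of-ratios scaling.

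The inhibitor Smad7 (chromosome 18, 75367365 to 75395934, plus strand), which recruits ubiquitin ligases to the type I receptor, was 8.28 and 7.65 TPM in MGS and 21.5 and 22.4 TPM in CV at day 5. The groups were well apart, 2.75-fold higher in CV (log2 fold change, MGS minus CV, -1.35, SE 0.20, limma adjusted p = 0.00121). At day 32 it was 16.5 and 17.6 TPM in MGS and 8.96 and 13.7 TPM in CV, without overlap but with a difference of only 0.58 (SE 0.20, adjusted p = 0.0357). This call was lost without any one library other than CV replicate 2 of day 32 (adjusted p from 0.0561 to 0.16), and median-of-ratios scaling brought the difference to -0.01. It was 0.20 from FPKM values (adjusted p = 0.212) and -0.26 after quantile normalization (adjusted p = 0.0544). After length and GC correction it was called the other way (-0.25, adjusted p = 0.0433). Smad7 was higher at day 32 in MGS (log2 fold change 1.01, adjusted p = 0.00738) and lower in CV (-0.92, adjusted p = 0.00782). The MGS increase kept its size but missed the threshold without any one of the 4 MGS libraries (adjusted p from 0.0509 to 0.0655), and the CV decrease did so in the fit of the 2 CV groups alone (adjusted p = 0.0788).

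Inhba (chromosome 13, 16014475 to 16027211, plus strand) was the lowest of the 9 genes in every group except CV at day 5. Activin, a dimer of its product, signals through the same Smad2 and Smad3 by its own receptors. It was 0.527 and 0.344 TPM in MGS and 5.25 and 6.26 TPM in CV at day 5, a 13.2-fold higher mean in CV (log2 fold change, MGS minus CV, -2.23, SE 0.22, limma adjusted p = 0.000141). At day 32 it was 1.68 and 1.65 TPM in MGS and 1.04 and 2.18 TPM in CV, with overlap (log2 fold change 0.06, SE 0.22, adjusted p = 0.8). The day 5 call held under all 18 alternatives, with values from -3.47 to -1.55, the lowest with a pseudocount of 0.1. A lower day 32 level in MGS was called after quantile normalization (-0.89) and after length and GC correction (-1.04). The decrease in CV from day 5 to day 32 was 3.58-fold (-1.40, adjusted p = 0.00168) and held under all 18. The MGS increase of 0.89 (adjusted p = 0.0152) missed the threshold without any one of the 4 MGS libraries, at 0.80 to 0.99 (adjusted p from 0.0634 to 0.0972), and was -0.00084 after length and GC correction (adjusted p = 0.997).

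Counted together, 8 of the 9 genes were called between the cultures at day 5, 3 higher and 5 lower in MGS, where 48.9% of all genes tested were called (22.5% higher and 26.4% lower). At day 32, 6 were called, 3 each way, a share near the 67.6% of all genes called in that comparison (52.8% higher and 14.8% lower). After median-of-ratios scaling the day 32 count was 1 higher and 4 lower, and after length and GC correction 1 higher and 7 lower, while the calls of all genes went from 78.0% higher to 50.2% and 43.8%. Between the days, 5 genes were called in MGS, all higher at day 32 (42.5% of all genes called, 35.0% higher and 7.53% lower). That direction depended on the scaling: the MGS counts were 4 higher and 1 lower after median-of-ratios scaling, 4 and 3 after quantile normalization, and 4 and 4 after length and GC correction, while the calls of all genes went from 82.3% higher to 50.3%, 48.1% and 45.9%. In CV 8 were called, 3 higher and 5 lower (53.7% called, 16.0% higher and 37.7% lower). The median log2 fold change of the 9 genes was -1.06 at day 5 and 0.06 at day 32, beside -0.14 and 0.56 over all genes. The difference between the days in the culture effect, tested as an interaction, was called for all 9 genes, 6 upward and 3 downward, where 62.0% of all genes were called (49.7% upward and 12.3% downward). These comparisons share libraries, each CV group being part of one comparison of cultures and of the comparison of days.

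**Figure D3:**
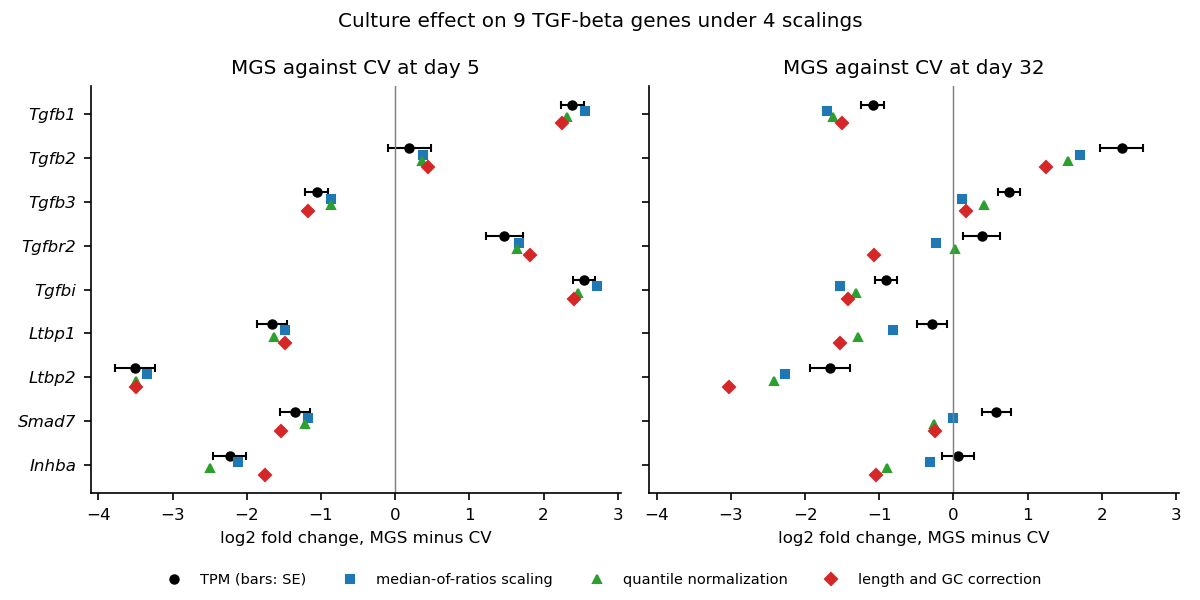
Log2 fold change (horizontal axis, MGS minus CV) of the 9 genes at day 5 and day 32, with TPM values (black, bars are SE) and 3 other scalings. At day 5 the 4 scalings keep each gene on its side of 0, although Inhba ranges from -2.49 to -1.75. At day 32 Tgfb3, Tgfbr2, Smad7 and Inhba cross or approach 0 with the scaling, whereas Tgfb1, Tgfb2, Tgfbi and Ltbp2 stay on their side.

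The order of levels within a group also differed. In MGS at day 5 it ran Tgfbr2, Tgfb3, Tgfb2, Tgfbi, Tgfb1, Smad7, Ltbp1, Ltbp2 and Inhba, and only Tgfbi and Tgfb1 overlapped with their neighbour. In CV at day 5 it ran Tgfb3, Ltbp2, Tgfb2, Tgfbr2, Smad7, Ltbp1, Inhba, Tgfb1 and Tgfbi, with overlap only of Tgfbr2 and Smad7. In MGS at day 32 it was Tgfb3, Tgfbr2, Tgfbi, Tgfb2, Tgfb1, Smad7, Ltbp2, Ltbp1 and Inhba, with every neighbour apart. In CV at day 32 Tgfbi led at 77.0 ± 13.7 TPM, the next 4 (Tgfb1, Tgfbr2, Tgfb3 and Ltbp2) overlapped in turn, and Smad7, Ltbp1, Tgfb2 and Inhba followed, with Ltbp1 and Tgfb2 overlapping.

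2 pairs of genes with like patterns on the log2(TPM + 1) scale are shown with their promoters, Tgfb1 beside Tgfbi and Ltbp1 beside Inhba, as the 250 bases before the RefSeq start (GRCm38.p6, sense strand of the gene, 5′ to 3′). Capitals mark a match to 1 of 4 motifs searched on both strands.
Tgfb1, chr7:25686752-25687001: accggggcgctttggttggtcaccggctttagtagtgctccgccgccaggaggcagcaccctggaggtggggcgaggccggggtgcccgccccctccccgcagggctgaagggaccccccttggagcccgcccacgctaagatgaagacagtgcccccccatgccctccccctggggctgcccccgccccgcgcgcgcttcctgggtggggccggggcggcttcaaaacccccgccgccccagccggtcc
Tgfbi, chr13:56609336-56609585: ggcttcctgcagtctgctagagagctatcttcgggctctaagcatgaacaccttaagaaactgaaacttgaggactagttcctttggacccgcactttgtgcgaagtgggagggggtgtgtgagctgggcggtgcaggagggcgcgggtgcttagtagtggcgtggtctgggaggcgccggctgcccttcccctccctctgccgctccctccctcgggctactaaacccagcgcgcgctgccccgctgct
Ltbp1, chr17:75005279-75005528: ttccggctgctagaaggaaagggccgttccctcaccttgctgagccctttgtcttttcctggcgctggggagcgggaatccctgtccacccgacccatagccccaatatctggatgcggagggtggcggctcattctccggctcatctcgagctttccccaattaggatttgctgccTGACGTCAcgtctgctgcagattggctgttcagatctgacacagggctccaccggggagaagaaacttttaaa
Inhba, chr13:16011601-16011850: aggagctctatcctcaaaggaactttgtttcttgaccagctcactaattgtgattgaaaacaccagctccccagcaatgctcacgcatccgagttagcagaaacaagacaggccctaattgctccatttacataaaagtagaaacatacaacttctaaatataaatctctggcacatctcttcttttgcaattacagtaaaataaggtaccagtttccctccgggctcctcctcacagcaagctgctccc

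The motifs were AP-1 (TGANTCA, in 6.75% of 32851 mouse promoters of this length), CRE (TGACGTCA, 1.55%), SMAD (CAGACA, 17.1%) and TEAD (GGAATG, 12.6%). Tgfb1 and Tgfbi had no match in these windows, and Ltbp1 had the CRE letters starting 73 bases before the start. Inhba had none, and its RefSeq start lies upstream of the gene start in the files. GC content was 75.2% for Tgfb1, 62.4% for Tgfbi, 56.8% for Ltbp1 and 43.2% for Inhba, beside a median of 52.4% over all promoters. Tgfb1 held 21 CpG pairs and Tgfbi 15, against a median of 6, and Inhba held 3. Among the remaining promoters, that of Tgfb2 and a further Ltbp1 promoter held the SMAD letters. No promoter of Tgfb3 or Smad7 is reported here, so their letters are not described. A match describes letters only.

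Likeness of pattern was measured as the root mean square difference of log2(TPM + 1), each gene centred on its mean over the 8 libraries, among 11223 genes of at least 5 TPM on average. Within the 9 genes the closest pairs were Tgfb3 with Smad7 (0.14), Ltbp1 with Inhba (0.27) and Tgfb1 with Tgfbi (0.31). This scale understates the changes of a low gene such as Inhba, so its likeness to other genes holds on this scale only. At day 5 the mean was 13.2-fold higher in CV for Inhba and 3.65-fold for Ltbp1. Closest among all genes were H2-M3 and Tmem140 for Tgfb1 (0.19 and 0.20) and Pcdhga12 and Sbk1 for Tgfb2 (0.18 and 0.19), and Baiap2 was among the closest to Tgfb3 (0.09). For Tgfbr2 they were Stat6 and Fam129a (0.09 and 0.10), for Tgfbi Clec4n and Sp100 (0.16 and 0.17), and for Ltbp1 Golm1 and Hk2 (0.07 and 0.10). Ltbp2 had no gene closer than Gpc4 and Sytl2 (0.26 and 0.27). Iffo2 and Rapgef4 were closest to Smad7 (0.05 and 0.06), and Nsdhl and Zfp367 to Inhba (0.07 and 0.14). With 4 groups, many genes share such a pattern, so the names describe these libraries only.

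Other genes of the pathway were counted from lists by role. Of the genes for latency and activation, 10 of 11 were tested, with 5 higher and 3 lower in MGS on day 5 (22.5% and 26.4% of all genes), and 6 higher and 1 lower on day 32 (52.8% and 14.8% of all genes). Thbs1, which encodes thrombospondin-1, an activator of the latent ligand, was lower in MGS at day 5 (21.1 ± 0.665 against 575 ± 80.1 TPM in CV, SD, n = 2, log2 fold change -4.70, limma adjusted p = 3.02e-05). Ltbp4, a latent binding protein, was higher in MGS at both days (87.3 against 4.56 and 96.3 against 3.12 TPM, log2 fold changes 3.99 and 4.56). It thus went the opposite way to Ltbp1 and Ltbp2 at day 5. Fbn2, a fibrillin, was also higher in MGS at both days (3.58 and 4.01). Itgb8, a subunit of an integrin that activates the latent ligand, was higher in MGS at day 32 (61.8 ± 1.26 against 2.41 ± 1.97 TPM, 4.33, adjusted p = 0.000107). At day 5 Itgb8 went the other way (7.17 ± 1.72 TPM in MGS against 31.3 ± 12.6 in CV, -1.94, adjusted p = 0.00785). The latency count at day 32 was 5 higher and 3 lower after median-of-ratios scaling and 4 higher and 5 lower after length and GC correction.

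Of 7 tested genes among 8 for other receptors and co-receptors, the day 5 counts in MGS were 3 higher and 1 lower (22.5% and 26.4% of all genes). Those of day 32 were 5 higher and none lower, beside 52.8% and 14.8% of all genes at day 32. Tgfbr3, the co-receptor betaglycan, was higher in MGS at both days (28.8 against 2.55 and 34.4 against 3.89 TPM, log2 fold changes 3.07 and 2.87, limma adjusted p = 1.15e-05 and 1.09e-05). Acvrl1, the type I receptor ALK1, was higher at day 5 (2.06), and Acvr1b, the activin type I receptor, at day 32 (2.66). Acvr2a, the activin type II receptor, was lower in MGS at day 5 (-1.09, adjusted p = 0.0101) and higher at day 32 (1.03, adjusted p = 0.00888). The day 5 call of Acvr2a was lost without MGS replicate 1, MGS replicate 2 or CV replicate 2 of day 5 (adjusted p from 0.0574 to 0.0674), and its day 32 value was 0.05 after length and GC correction and 0.08 after quantile normalization (adjusted p = 0.615). The day 32 call was also lost without MGS replicate 2 of day 32 (adjusted p = 0.0565). The receptor count at day 32 was 4 higher and 1 lower after median-of-ratios scaling and 3 higher and 2 lower after length and GC correction.

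In the activin branch, 5 of 7 genes were tested, with 1 higher and 2 lower in MGS on day 5, and 2 higher and 1 lower on day 32 (all genes 22.5% and 26.4%, then 52.8% and 14.8%). Fst, which encodes the activin-binding protein follistatin, was lower in MGS at both days (1.28 ± 0.284 against 30.4 ± 3.85 TPM, then 1.96 ± 0.326 against 7.92 ± 2.48 TPM, SD, n = 2, log2 fold changes -3.78 and -1.57, limma adjusted p = 1.5e-05 and 0.00082). Its day 5 direction is that of Inhba. Inha, the inhibin alpha subunit, went the other way (1.42 and 1.26), and its day 32 call was lost under quantile normalization (0.35, adjusted p = 0.116). Fstl3, a follistatin-like antagonist, was lower in MGS at day 5 (-1.04, adjusted p = 0.00742) and was lost without MGS replicate 1 or CV replicate 2 of day 5. Gdf11, a related ligand, was higher in MGS at day 32 (59.2 ± 4.06 against 10 ± 4.85 TPM, 2.52, adjusted p = 0.000176). The activin count at day 32 was 2 higher and 2 lower, both after median-of-ratios scaling and after length and GC correction.

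All 7 genes for Smads and co-repressors were tested, with none higher and 3 lower in MGS at day 5 (26.4% of all genes lower), and 3 higher and 1 lower at day 32 (52.8% and 14.8% of all genes). The day 5 genes were Skil (-1.09), Smad2 (-0.93) and Ski (-0.66), the first and last being repressors of Smad transcription and Smad2 a signal carrier. All 3 calls were lost in some fits that left out 1 library, each without MGS replicate 1, MGS replicate 2 or CV replicate 2 of day 5 (limma adjusted p from 0.068 to 0.123). Ski was also lost without CV replicate 1 of day 5 (0.0774) or either MGS replicate of day 32 (0.051). At day 32 Smad4, the common partner, Smad3 and Ski were higher in MGS (1.37, 1.21 and 0.95). Smad3 was 0.24 (adjusted p = 0.0625) and Ski was -0.14 after length and GC correction. The day 32 count was 3 higher and 2 lower after median-of-ratios scaling and 1 higher and 4 lower after length and GC correction.

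Of 7 genes for negative feedback, 1 was higher and 3 lower in MGS at day 5 (22.5% and 26.4% of all genes). Bambi, a decoy receptor, was 6.96 ± 0.324 TPM in MGS and 20.1 ± 0.354 TPM in CV (log2 fold change -1.41, limma adjusted p = 0.000126), Smurf1, a ubiquitin ligase that partners Smad7, was lower as well (-1.31, adjusted p = 0.00205), and Dact2, which promotes receptor degradation, was higher (1.57, adjusted p = 0.00101). Bambi and Smurf1 went in the direction of Smad7. The day 32 counts were 3 higher and 2 lower (52.8% and 14.8% of all genes). Smurf2 was higher (1.11) and Pmepa1, a Smad-binding inhibitor, lower (-0.65, adjusted p = 0.00771), the latter call lost without MGS replicate 1 of day 32 (adjusted p = 0.0608). Smad6, an inhibitory Smad, was lower in MGS at day 5 (27.8 ± 2.83 against 68.9 ± 11.3 TPM, -1.27, adjusted p = 0.00102). At day 32 it was higher (0.70, adjusted p = 0.0114), but its difference was 0.08 after median-of-ratios scaling and the call was lost without MGS replicate 2 of day 32 (adjusted p = 0.0865). Smurf2 was 0.06 after length and GC correction. The day 32 count was 2 higher and 3 lower after median-of-ratios scaling and 1 higher and 4 lower after length and GC correction.

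Among 20 known TGF-beta target genes, MGS had 7 higher and 10 lower at each day, with a median log2 fold change of -0.64 at day 5 and -0.30 at day 32 beside -0.14 and 0.56 over all genes, of which 22.5% were higher and 26.4% lower at day 5 and 52.8% and 14.8% at day 32. Tnc, the matrix protein tenascin-C, was lower in MGS at day 5 (64.8 ± 2.14 against 778 ± 70.8 TPM in CV, SD, n = 2, log2 fold change -3.56, limma adjusted p = 1.63e-05), and Acta2, smooth muscle actin, at day 32 (305 ± 4.94 against 2609 ± 27.3 TPM, -3.09, adjusted p = 9.42e-07). Each was lower at the other day too. Tnc was at 103 ± 2.59 against 227 ± 82.6 TPM at day 32 (-1.08, adjusted p = 0.00391). Acta2 was at 243 ± 14.3 against 2622 ± 230.1 TPM at day 5 (-3.42, adjusted p = 7.99e-07). Col1a2, a collagen chain, went the other way at both days (1116 ± 27.9 against 63.8 ± 4.23 TPM, then 709 ± 20.9 against 82.4 ± 28.9 TPM, 4.11 and 3.13). Tgfbi at day 5 went with Col1a2 and not with Tnc. Col1a2 is also on the list of meningeal fibroblast markers. The target count at day 32 was 6 higher and 11 lower after median-of-ratios scaling and 6 higher and 13 lower after length and GC correction.

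**Figure D4:**
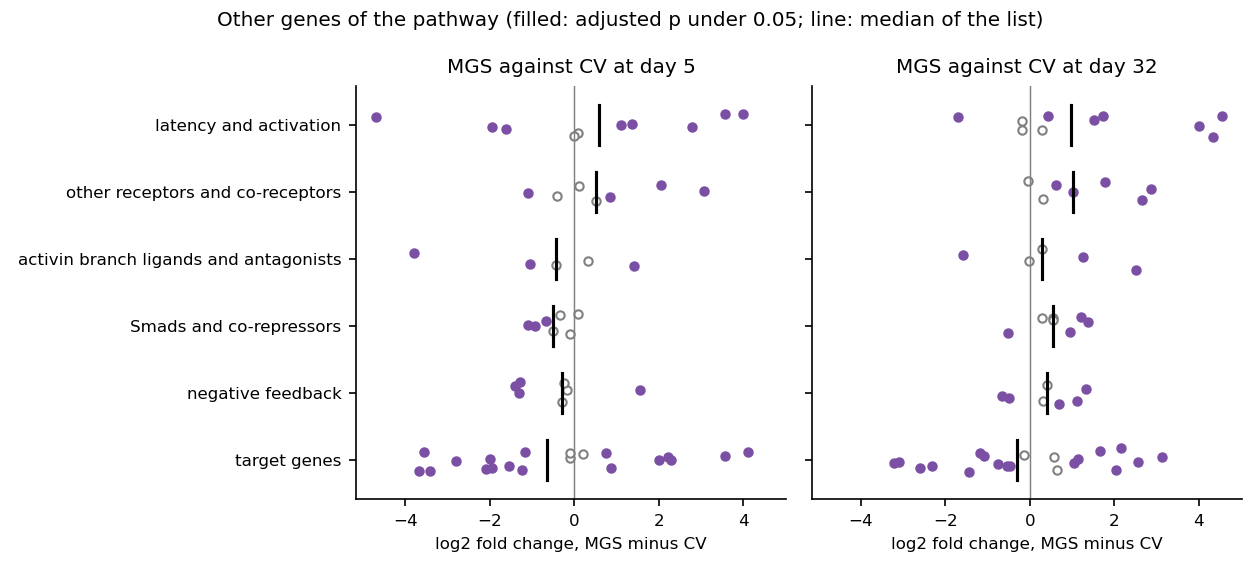
Log2 fold change (horizontal axis, MGS minus CV) at day 5 and day 32 of the other pathway genes, by list. Each point is a gene, filled where the adjusted p is under 0.05, and the line is the list's median. The target genes spread from strongly lower in MGS (Tnc at day 5, Acta2 at both days) to strongly higher (Col1a2 at both days).

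Markers of several cell types also differed between the groups. In bulk RNA, fewer cells of a type and less RNA per cell cannot be told apart. The 10 astrocyte markers were all at 1 TPM or more in every library, with a summed level of 17587 and 17797 TPM in MGS and 3858 and 4105 TPM in CV at day 5, and 14662 in both MGS libraries and 1551 and 2019 TPM in CV at day 32. Gfap made up most of it (13733 TPM on average in MGS at day 5). By count, MGS had 6 of the 10 higher and 1 lower at day 5 (22.5% and 26.4% of all genes). At day 32 it had 9 higher and 1 lower (52.8% and 14.8% of all genes), with Aldh1l1 lower in MGS at both days (-0.69 and -0.61). The 10 microglia markers summed to 407 and 413 TPM in MGS and 86.4 and 103 TPM in CV at day 5, and to 552 and 549 TPM in MGS and 5243 and 4774 TPM in CV at day 32. On the TPM scale their order over the 4 groups, CV day 5, then MGS day 5, MGS day 32 and CV day 32, is that of Tgfbi, and it is that of Tgfb1 apart from the 2 MGS groups. The Tgfbi difference between the 2 MGS groups kept its call under only 6 of 18 alternatives and was as low as 0.03 on the log2 scale. At day 5, 8 of the 10 microglia markers were higher in MGS and none lower (22.5% and 26.4% of all genes). At day 32 none was higher and 9 were lower (52.8% and 14.8% of all genes). C1qa and C1qb, complement genes of microglia, averaged 2.89 and 3.8 TPM in CV at day 5 and 1507 and 1909.9 TPM in CV at day 32. Ptprc averaged 0.0571 TPM in CV at day 5.

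The 10 meningeal fibroblast markers summed to 5745 and 5902 TPM in MGS and 364 and 360.4 TPM in CV at day 5, and to 3393 and 3404 TPM in MGS and 293 and 483 TPM in CV at day 32. All 10 were higher in MGS at both days. The counts of this paragraph are to be read beside all genes tested, with 22.5% higher and 26.4% lower in MGS at day 5. At day 32 these shares were 52.8% and 14.8%. Slc22a6 was listed at 0 in all 4 CV libraries, and Slc6a13 averaged 0.0737 and 0.11 TPM there. The 8 mural markers summed to 263 and 267 TPM in MGS and 55.0 and 56.9 in CV at day 5, and to 178 and 187 TPM in MGS and 32.4 and 49.1 TPM in CV at day 32. The 8 endothelial markers summed to 219.7 and 216 TPM in MGS and 31.9 and 36.4 in CV at day 5, and to 150 and 168 TPM in MGS and 12.7 and 24.7 in CV at day 32. Most of the MGS sum at day 32 was Cdh5 (127 TPM on average) and Kdr (27.4 TPM), with Pecam1, Cldn5 and Tie1 near 0 there (0.0713, 0.0831 and 0.0297 TPM). By count, MGS had 5 of the 8 higher and 1 lower at day 5, and 4 higher and none lower at day 32. The day 32 count of higher markers is near the 52.8% of all genes. The 6 ependymal and choroid plexus markers summed to 12839 and 17240.2 TPM in MGS and 305 and 276 in CV at day 5, and to 2790 and 2802 TPM in MGS and 283 and 282 in CV at day 32. Ttr carried the MGS sum at day 5 (14647 TPM on average) and was 1868 TPM at day 32. Between the days in MGS, 3 of the 6 were called higher at day 32 and 1 lower (35.0% and 7.53% of all genes). The 6 oligodendrocyte markers were also higher in MGS at both days, at 498 to 616 TPM against 104 to 161 in CV. Of 6 neuron markers, 5 were tested, with 2 higher and 2 lower in MGS at day 5 and 2 higher and 1 lower at day 32, and Stmn2 made up most of their sum in CV (109 and 144 TPM at the 2 days). The part of these cell types in the differences of Tgfb1, Tgfbi, Tgfbr2 and the remaining genes was not tested.

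**Figure D5:**
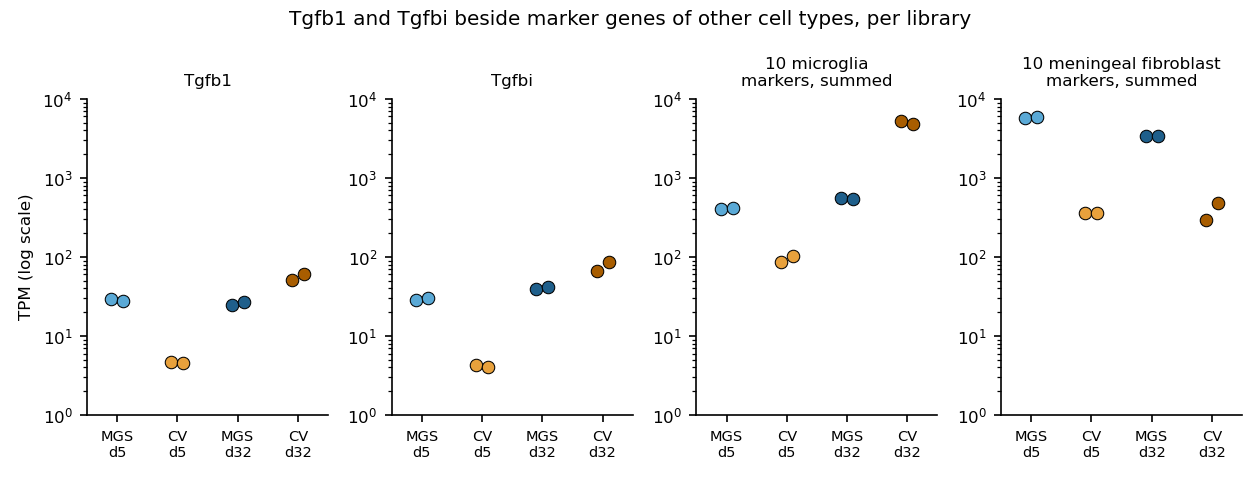
TPM (log scale) of Tgfb1 and Tgfbi beside the summed TPM of 10 microglia and 10 meningeal fibroblast markers, with 1 point per library. The microglia sum is lowest in CV at day 5 (86.4 and 103 TPM) and highest in CV at day 32 (5243 and 4774 TPM), like Tgfb1 and Tgfbi, whereas the fibroblast sum is higher in MGS at both days.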

How the data were processed

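The members and gene lists were chosen with earlier results of these data known. Per the labels' protocols, RNA was isolated in TRIzol, and the library kit was NEB Ultra II directional. The submitters' processing notes name bcl2fastq, HISAT2 2.1.0, StringTie 1.3.4d and, without roles, both mm10 and hg38. The annotation and the use of strand are not given in the sources used here. The authors deposited coverage, FPKM and TPM per gene row, per the file headers, and a series-wide TPM table. No counts were used, so depth enters only as aligned bases.

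TPM rows were summed per gene ID (23420 IDs), and the 9 members had identical values in both sources. Genes with at least 1 TPM in at least 2 libraries (14904) were fitted with limma 3.58.1 (R 4.3.3) on log2(TPM + 1), with 4 group means over all 8 libraries, a mean-variance trend and Benjamini-Hochberg adjustment, two-sided, with 4 residual degrees of freedom. Cultures were compared within each day, days within each culture, and the interaction of both was tested. The script was tested on simulated data. Alternatives were a pseudocount of 0.1, no filter, median-of-ratios scaling, quantile normalization, FPKM, length and GC correction (GENCODE longest transcripts, 99.4% of genes), a replicate block with and without it, the series-wide table, only the 2 groups compared, and each library left out. Adding the replicate block, or taking the series-wide table with its identical member values, cannot move a member's fold change. Nor can dropping the filter, fitting only the 2 groups, or leaving out a library outside the comparison. These alternatives bear on the call only. Named are all members, up to 3 called genes per pathway list and comparison of cultures with the largest change (higher group averaging 5 TPM or more), the 2 highest genes of a marker list where its genes are named, and the 2 closest genes per member. Some genes that this rule picks are not reported here. Ptprc, Slc22a6, Slc6a13, Aldh1l1, Pecam1, Cldn5, Tie1 and Ltbp3 were named after their values were seen. So were the day 5 values of Itgb8, Smad6 and Acta2 and the day 32 values of Tnc. The main fit did not pair libraries by replicate number.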

Additional observations from a re-analysis of the deposited data

Results flagged for a closer look

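The culture effect at day 32 minus that at day 5, tested as the interaction in limma over all 14904 genes, passed the threshold for all 9 genes, where 62.0% of all genes tested did (49.7% upward and 12.3% downward). An upward value means that MGS gained relative to CV between the days. The 3 downward genes were Tgfb1 (-3.47 on the log2 scale, SE 0.21, adjusted p = 3.71e-05), Tgfbi (-3.46, SE 0.22, adjusted p = 4.33e-05) and Tgfbr2 (-1.09, SE 0.35, adjusted p = 0.0291). For Tgfb1 and Tgfbi the culture effect turned from higher in MGS to higher in CV, and both calls held under all 17 alternatives. Tgfbr2 lost its call without any one of the 6 libraries outside CV at day 32 (adjusted p from 0.0561 to 0.0882), and its value ran from -2.89 with length and GC correction (adjusted p = 3.89e-06) to -0.67 without CV replicate 2 of day 32.

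The 6 upward genes were Inhba (2.30, SE 0.30, adjusted p = 0.00089), Tgfb2 (2.08, SE 0.41, adjusted p = 0.00462), Smad7 (1.93, SE 0.28, adjusted p = 0.00138), Ltbp2 (1.84, SE 0.38, adjusted p = 0.00523), Tgfb3 (1.80, SE 0.21, adjusted p = 0.000566) and Ltbp1 (1.37, SE 0.28, adjusted p = 0.00526). Inhba, Tgfb2, Smad7 and Tgfb3 kept their calls under all 17 alternatives, but at smaller values in some: Inhba was 0.71 and Tgfb2 0.81 with length and GC correction, Smad7 0.96 with quantile normalization and Tgfb3 0.99 with median-of-ratios scaling. Inhba was 3.6 with a pseudocount of 0.1. The median over all genes was 0.65 on this scale, so the upward values are to be read beside it. Ltbp1 lost its call under quantile normalization (0.35, adjusted p = 0.0756) and length and GC correction, and Ltbp2 under length and GC correction (0.47, adjusted p = 0.0666).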

How the results depend on the processing

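Over 45 member values and up to 18 alternatives each, 704 of 801 kept direction and side of the threshold, 31 reversed, 45 lost a call and 21 gained one. The 704 include alternatives in which the fold change cannot move by design, so the tally overstates how far direction was tested. At day 5 all 8 calls held throughout. Reversals for MGS minus CV at day 32 came under median-of-ratios scaling (Tgfbr2 -0.24, Smad7 -0.01, Inhba -0.31), quantile normalization (Smad7 -0.26, Inhba -0.89), FPKM (Inhba -0.12), and length and GC correction, with or without the replicate block (Tgfbr2 -1.07, Smad7 -0.25, Inhba -1.04, Ski -0.14). For the days in MGS they came under the same settings for Tgfbr2 (-0.35, -0.22, -0.17 and -0.85), for Ltbp1 except under FPKM (-0.11, -0.36 and -0.47) and for Inhba with length and GC correction (-0.00084). The Ltbp1 interaction was -0.05 with that correction. The cause was not tested.

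With 1 library left out, values near 0 ranged over both signs: Inhba at day 32 from -0.26 to 0.38, Tgfbr2 at day 32 from -0.03 to 0.80, Tgfb2 at day 5 from -0.04 to 0.41, Tgfb2 between the days in MGS from -0.15 to 0.03, and Ltbp2 between the days in CV from -0.39 to 0.45. Calls over all genes ranged from 4523 to 10086 at day 5 (7291 with all libraries), from 2455 to 9732 between the days in MGS (6335) and from 4830 to 10676 in CV (7997), and members called between the days in MGS from 2 to 5. Only the 2 groups compared gave 11596 calls in MGS and 3483 in CV, with 4 members called in CV. Length and GC correction gave 8 members called between the days in MGS. The main fit did not pair libraries by replicate number. Correlations of replicate deviations between groups ran from -0.131 to 0.444, the highest between CV at day 5 and CV at day 32. These values do not show that the CV libraries are unpaired. The replicate block gave 7894 calls at day 5, 7209 between the days in MGS and 8529 in CV, more than without it, and changed no member's call. Depth was known only as aligned bases, so counting error could not be given.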
